A study of Mus musculus with 4 samples.

Results

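The transcripts of 10 genes of the neuronal cytoskeleton were followed across the 4 libraries of the series. They were the neurofilament subunits Nefl, Nefm, Nefh and Ina, the related filament protein Prph, the microtubule-associated proteins Mapt, Map2 and Map1b, the neuronal tubulin Tubb3 and the tubulin-binding protein Stmn2. The genes were chosen by symbol for their role in the cytoskeleton, and all 10 were found among the 12700 genes of the count table. The table holds only genes of which reads covered more than 50% of the length. No further filter on low counts was applied, so each member has a value in each library.

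The series compared mice lacking iduronate 2-sulfatase (Ids-ko), a model of the lysosomal storage disease mucopolysaccharidosis type II, with wild type (wt) mice. All animals were C57BL/6 mice of 9 months of age, and no further allele or treatment is named in the labels. Polyadenylated RNA was sequenced from the cerebral cortex (Cx) and from an area of midbrain, diencephalon and hippocampus (M). Each of the conditions CxH (Ids-ko, Cx), CxWT (wt, Cx), MH (Ids-ko, M) and MWT (wt, M) was 1 library made from the pooled RNA of 7 mice. Both areas were dissected from each brain, so CxH and MH came from the same mice, as did CxWT and MWT. Because there were no replicates, a test on the reads of 2 libraries compared those libraries and not the genotypes or brain areas, and the variation between mice could not be measured.

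Neurofilaments are the intermediate filaments of neurons. Nefl, Nefm, Nefh and Ina encode the light, medium and heavy subunits and alpha-internexin, which assemble together and fill the axon, and they are most abundant in neurons with thick, myelinated axons. Microtubules run along the same axons as tracks for transport. They are built from tubulins, are stabilised by proteins such as tau, MAP1B and, mainly in dendrites, MAP2, and are destabilised by stathmins.

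The promoters of Prph and Ina are shown because these genes had the widest and the narrowest range among the members, in levels not corrected for GC content and length. Each sequence runs from 250 bases before to 50 bases after the transcription start in the RefSeq annotation of GRCm38.p6, and capitals mark the letters TATAAA of a TATA box. The Prph window lies at chr15:99054924-99055223 and the Ina window at chr19:47014431-47014730, both on the plus strand.
Prph: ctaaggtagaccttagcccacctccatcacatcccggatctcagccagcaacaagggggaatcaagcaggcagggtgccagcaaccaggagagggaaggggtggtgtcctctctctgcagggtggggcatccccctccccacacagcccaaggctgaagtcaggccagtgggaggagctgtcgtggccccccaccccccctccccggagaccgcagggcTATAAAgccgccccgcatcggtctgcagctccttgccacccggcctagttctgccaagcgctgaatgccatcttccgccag
Ina: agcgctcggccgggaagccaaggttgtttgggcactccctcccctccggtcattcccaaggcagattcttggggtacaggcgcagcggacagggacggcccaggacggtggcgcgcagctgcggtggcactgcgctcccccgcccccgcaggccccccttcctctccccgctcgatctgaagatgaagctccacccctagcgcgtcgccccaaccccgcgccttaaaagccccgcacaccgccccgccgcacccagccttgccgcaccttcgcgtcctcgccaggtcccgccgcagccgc
The Prph window held TATAAA at position -31, counted from the start, followed by GGGCGG (a GC box) on the opposite strand at -24, without overlap. The Ina window held no TATAAA and had GGGCGG on the opposite strand at -111 and -12. When both strands were searched, 13.6% of the 32851 promoters of the same length held TATAAA, 35.7% held GGGCGG and 37.4% held CCAAT. Sequences of 5 of the 10 members were at hand. The windows of Map2 and Tubb3 held 5 and 2 copies of GGGCGG, and Tubb3 also held CCAAT at -77 on the opposite strand. That of Map1b held TATAAA at -99 and GGGCGG at -39 and 10. Nefl, Nefm, Nefh, Mapt and Stmn2 had no entry.

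Reads on genes numbered from 16380080 to 23475080 per library. Levels are given as RPM, a reads-per-million scale on the aligned reads, with the 95% exact Poisson interval, and differences as log2 ratios ± the standard error, both of which cover counting error only. A call required a log2 ratio of 0.7 or more in either direction together with a p-value under 0.05 in a likelihood ratio test for Poisson counts, the criteria stated in the methods of the study. At this depth 3 reads correspond to 0.0779 RPM in CxH and 0.104 RPM in MWT.

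The targeted gene and the markers of brain areas were examined before the comparisons. Ids had 135 RPM in CxH and 354 RPM in CxWT, but 368 RPM in the library labelled MH and 155 RPM in the library labelled MWT. Its log2 ratio was -1.39 ± 0.024 in CxH vs. CxWT and 1.24 ± 0.025 in MH vs. MWT, so in M the Ids reads went against the genotype labels. The counts do not show from which exons of Ids the reads came. The area markers also went against the labels. The 15 markers of cortical projection neurons summed to 2461 RPM in CxH and 2261 RPM in MH, against 469.9 RPM in CxWT and 404 RPM in MWT. The 17 markers analysed of neurons of midbrain, diencephalon and hindbrain summed to 525 RPM in CxWT and 455 RPM in MWT, but to 28.9 RPM in CxH and 41.2 RPM in MH. Slc6a4, the serotonin transporter, had 3 and 2 reads in CxH and MH and 647 and 446 reads in CxWT and MWT. In the markers of brain area, CxH was therefore closer to MH and CxWT closer to MWT, while in Ids CxH was closer to MWT and CxWT closer to MH. Whether labels were exchanged between libraries was not tested. The libraries are named here by their labels, and every direction, in Cx as in M, is one between libraries with these labels. In such bulk tissue, fewer cells of a type and less RNA per cell cannot be told apart.

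**Figure D1:**
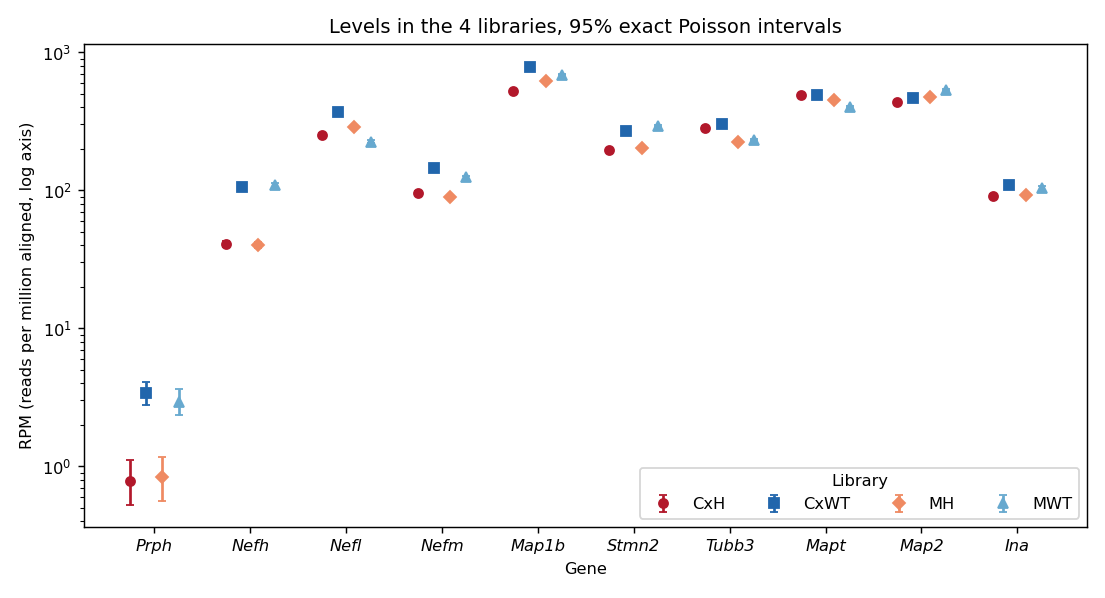
Levels of the 10 genes in each library, as RPM on a log axis; points are single libraries and bars the 95% exact Poisson interval of the counts. Prph and Nefh were lower in CxH and MH than in CxWT and MWT, whereas Mapt and Map2 lay within a narrow range in all 4 libraries.

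Apart from Ina, members of the filament family differed most between libraries, and Prph and Nefh were the extremes. The range of the level over the 4 libraries, from the lowest to the highest, was 2.12 log2 units for Prph and 1.45 for Nefh. It was 0.72 for Nefl and 0.71 for Nefm, 0.58 for both Map1b and Stmn2, 0.43 for Tubb3, 0.30 for Mapt, 0.28 for Map2 and 0.26 for Ina. The smallest range thus also belonged to a filament gene, in levels not corrected for GC content and length. With that correction the widest log2 ratio of Ina was -0.63 (CxH vs. MWT). It was -0.23 for both Map2 (CxH vs. MWT) and Mapt (MH vs. CxWT), so Ina was then not the narrowest.

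Nefh encodes the heavy subunit, whose long tail reaches sideways from the filament. It lies on chromosome 11 from 4838757 to 4848067 on the minus strand of NCBI37/mm9. Nefh had 41.0 RPM (39.0 to 43.1) in CxH, 106 RPM (103 to 110.0) in CxWT, 40.1 RPM (38.1 to 42.2) in MH and 109.5 RPM (106 to 113) in MWT. CxH and MH were low and CxWT and MWT were high, with no interval of the first pair reaching the second. In CxH vs. CxWT the log2 ratio of Nefh was -1.38 ± 0.044, a 2.60-fold lower level, and the gene was called down-regulated. It was also called in the libraries labelled MH vs. MWT, at -1.45 ± 0.045 or 2.73-fold lower. The ratio was 0.03 ± 0.052 between CxH and MH, and -0.04 ± 0.035 between CxWT and MWT, neither of which exceeded the counting error. Corrected for GC content and length they were -0.14 and -0.48, neither of them called. The sign of the CxH vs. MH ratio changed when libraries were scaled by column totals (-0.01).

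Prph encodes peripherin, best known from peripheral and motor neurons, and lies on chromosome 15 from 98885605 to 98889409. It was the least abundant member, with 30 and 31 reads in CxH and MH and 114 and 85 reads in CxWT and MWT. These counts correspond to 0.779 RPM (0.526 to 1.11) and 0.830 RPM (0.564 to 1.18), and to 3.39 RPM (2.80 to 4.07) and 2.94 RPM (2.35 to 3.63). As for Nefh, CxH and MH were low and CxWT and MWT high, and the intervals of these pairs did not overlap. The log2 ratio was -2.12 ± 0.30 in CxH vs. CxWT and -1.82 ± 0.30 in MH vs. MWT, or 4.35-fold and 3.54-fold lower, and both were called. In MH vs. MWT neither library reached 100 reads, and a minimum of that size ended the call there. The ratio of -0.09 ± 0.37 for CxH vs. MH, and likewise that of 0.21 ± 0.21 for CxWT vs. MWT, did not exceed the counting error.

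Nefl, the light subunit on which filament assembly depends, lies on chromosome 14 from 68701920 to 68707152 on the plus strand. Its level was 253 RPM (248 to 258) in CxH, 371 RPM (364 to 377) in CxWT, 287 RPM (281 to 292) in MH and 224 RPM (219 to 229.9) in MWT. It was highest in CxWT and lowest in MWT, a library in which Nefh was high. Its log2 ratio was -0.55 ± 0.020 in CxH vs. CxWT and 0.35 ± 0.023 in MH vs. MWT, opposite in sign and neither large enough to be called. Nefl was called higher only in CxWT vs. MWT, at 0.72 ± 0.022. That call was lost under each other scaling of the libraries, where the ratio was 0.63 to 0.67.

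Nefm, the medium subunit, lies beside Nefl on the minus strand of chromosome 14, from 68700647 to 68742903 with its putative transcript included. The level of Nefm was 95.1 RPM (92.1 to 98.2) in CxH, 146 RPM (142 to 150.1) in CxWT, 89.5 RPM (86.5 to 92.6) in MH and 124 RPM (119.9 to 128) in MWT. CxH and MH again had the lower levels, but the gap was smaller than for Nefh. The log2 ratio of -0.62 ± 0.032 in CxH vs. CxWT and of -0.47 ± 0.035 in MH vs. MWT did not reach the threshold, whereas -0.71 ± 0.032 in MH vs. CxWT did. The latter call was lost under the other scalings, at -0.67 to -0.60. Of the 3380 exon bases of Nefl, 1108 are also exon bases of an Nefm transcript annotated as putative on the opposite strand. Whether the counting used strand is not given in the sources used here, so the split of reads between Nefl and Nefm is uncertain.

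Ina encodes alpha-internexin, a subunit that neurons of the brain make early, and lies on chromosome 19 from 47089188 to 47099817. It had 91.6 RPM (88.6 to 94.7) in CxH, 109 RPM (106 to 113) in CxWT, 92.9 RPM (89.8 to 96.0) in MH and 103 RPM (99.5 to 107) in MWT. CxH and MH were again the lower libraries, with overlapping intervals, but the differences were small. The log2 ratio was -0.26 ± 0.034 in CxH vs. CxWT and -0.15 ± 0.036 in MH vs. MWT, without a call in any pair of libraries. Corrected for GC content and length these ratios were larger, at -0.49 and -0.48, and that of CxH vs. MWT moved from -0.17 to -0.63, still without a call.

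**Figure D2:**
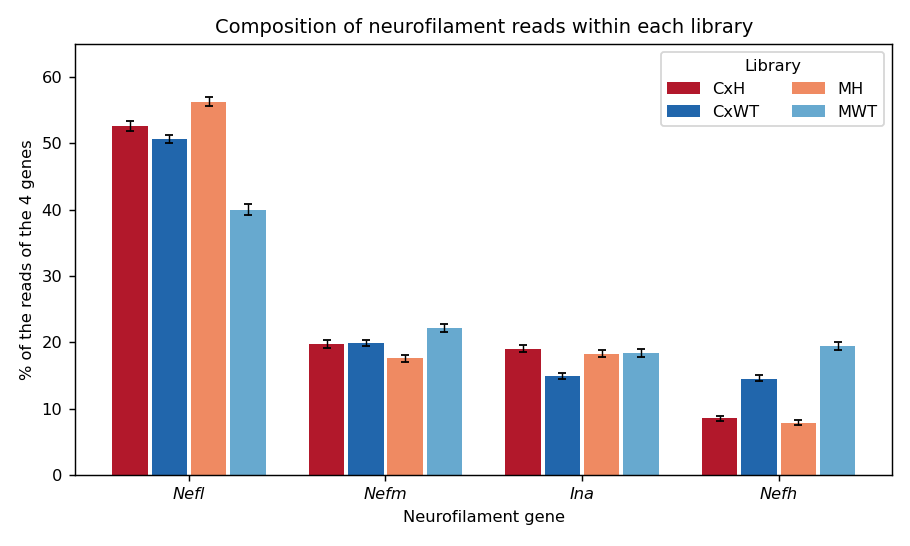
Share of the reads of Nefl, Nefm, Nefh and Ina taken by each gene in each library, in percent of their summed reads; each bar is 1 library, with the 95% exact Clopper-Pearson interval. Nefh took 8.53% in CxH and 7.88% in MH, against 14.5% in CxWT and 19.5% in MWT.

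The composition of the 4 neurofilament transcripts does not depend on how libraries are scaled. In CxH, Nefh made up 8.53% of their reads (8.13 to 8.94, the 95% exact Clopper-Pearson interval), and in MH 7.88% (7.50 to 8.27). In CxWT the share was 14.5% (14.1 to 15.0) and in MWT 19.5% (18.9 to 20.1), and no intervals other than those of CxH and MH overlapped. Nefl made up 52.7%, 50.6% and 56.3% in CxH, CxWT and MH, and 40.0% (39.2 to 40.8) in MWT. Nefm stayed between 17.6% and 22.1% and Ina between 14.9% and 19.0%. The share of the heavy subunit was therefore lowest in CxH and MH, while the share of the light subunit was lowest in MWT. These shares are not corrected for GC content, and the split between Nefl and Nefm is uncertain. In CxWT vs. MWT the correction for GC content and length moved Nefh from -0.04 to -0.48 and Nefl from 0.72 to 0.79.

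Of the microtubule-associated proteins, none was called in any pair of libraries. Mapt encodes tau, which binds axonal microtubules, and lies on chromosome 11 from 104092704 to 104193404. Its level was 493 RPM (486 to 500.0) in CxH, 490.0 RPM (483 to 498) in CxWT, 452 RPM (445 to 458) in MH and 399.7 RPM (392 to 407) in MWT. CxH and CxWT were not distinguishable, with a log2 ratio of 0.01 ± 0.015, while MWT was the lowest library. With the correction for GC content and length the ratio turned from 0.18 to -0.09 in MH vs. MWT and from 0.30 to -0.01 in CxH vs. MWT, so that MWT was no longer lowest. Map2, on chromosome 1 from 66221847 to 66489157, encodes a protein that stabilises microtubules mainly in dendrites. It had 437 RPM (430.2 to 443), 465 RPM (457 to 472), 473 RPM (466 to 480.3) and 532 RPM (524 to 540.4) in the same order. MWT was here the highest library, the reverse of Mapt. Of the summed reads of both genes, Map2 took 47.0% and 51.2% in CxH and MH, and 48.7% and 57.1% in CxWT and MWT.

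Map1b encodes a microtubule-associated protein of growing axons and lies on chromosome 13 from 100191419 to 100286557. It had 527 RPM (519.8 to 534) in CxH, 787 RPM (778 to 797) in CxWT, 619 RPM (611 to 627) in MH and 690.5 RPM (681 to 700.1) in MWT. No intervals overlapped, with CxH lowest and CxWT highest. The log2 ratio was -0.58 ± 0.013 in CxH vs. CxWT and -0.16 ± 0.014 in MH vs. MWT. Compared with Map1a, its relative of mature neurons, Map1b took 35.2% (34.8 to 35.6) of the reads of the pair in CxH and 43.5% (43.0 to 43.9) in MH. In CxWT and MWT it took 51.6% (51.2 to 52.1) and 53.7% (53.2 to 54.2). Map1b was thus the smaller part in CxH and MH and the larger part in CxWT and MWT. These shares are not corrected for GC content, and in MH vs. MWT the correction moved Map1b to -0.32 and turned Map1a from 0.44 to -0.14.

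Tubb3, the beta-tubulin of neurons, lies on chromosome 8 from 125935324 to 125945915. It had 285 RPM (279 to 290.2) in CxH, 301 RPM (295 to 307) in CxWT, 223 RPM (218 to 228) in MH and 231 RPM (226 to 237) in MWT. The libraries labelled Cx were higher than those labelled M, as for Mapt and for no filament gene, in levels not corrected for GC content. The log2 ratio was 0.35 ± 0.021 for CxH vs. MH and 0.38 ± 0.023 for CxWT vs. MWT, both below the threshold. Corrected for GC content and length these were 0.14 and 0.10, and the ratio in CxH vs. MWT turned from 0.30 to -0.23, so the order of libraries did not hold. Within Cx and within M it was -0.08 ± 0.020 and -0.05 ± 0.024, and with TMM or DESeq2 scaling both became 0.01. It took 11.1% of the reads of 7 beta-tubulin genes in MH and 12.9% to 13.4% in the other libraries. Tubulin genes share long stretches of sequence, and reads were counted only where they matched 1 gene, which makes these values uncertain.

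Stmn2 encodes stathmin-2 (SCG10), a protein of growing and regenerating axons, and lies on chromosome 3 from 8509527 to 8561604. Its level was 194.7 RPM (190.3 to 199) in CxH, 269 RPM (264 to 275) in CxWT, 201 RPM (197 to 206) in MH and 292 RPM (285 to 298) in MWT. CxH and MH were low and CxWT and MWT high, the grouping seen for Nefh and Prph at a smaller size. The log2 ratio of -0.47 ± 0.023 in CxH vs. CxWT and of -0.54 ± 0.023 in MH vs. MWT did not reach the threshold. Corrected for GC content and length they shrank to -0.27 and -0.17, whereas those of Nefh and Prph grew. Among the reads of Stmn2, Stmn3 and Stmn4, Stmn2 took 41.8%, 43.9% and 41.0% in CxH, CxWT and MH, and 53.4% (52.6 to 54.2) in MWT.

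Per length of transcript, Tubb3 and Stmn2 were the most abundant members in all 4 libraries. In CxH, CxWT, MH and MWT, Tubb3 had 152, 161, 119 and 124 RPM per kilobase of transcript (RPKM), and Stmn2 had 102, 141, 106 and 153 RPKM. Stmn2 exceeded Tubb3 in MWT only. Mapt, Nefl and Map2 held the next places, from 66.4 RPKM for Nefl in MWT to 109.6 RPKM for Nefl in CxWT. Map1b came after them with 44.5 to 66.4 RPKM, followed by Nefm and Ina with 26.8 to 43.8 RPKM. Nefh had 10.3, 26.7, 10.045 and 27.4 RPKM and Prph 0.418, 1.82, 0.445 and 1.57 RPKM. Neighbours that exchanged places between libraries were Tubb3 with Stmn2, Nefl, Mapt and Map2 among each other, and Nefm with Ina. Nefm and Ina did not differ beyond counting error in CxH, nor did Nefl and Mapt in MH.

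**Figure D3:**
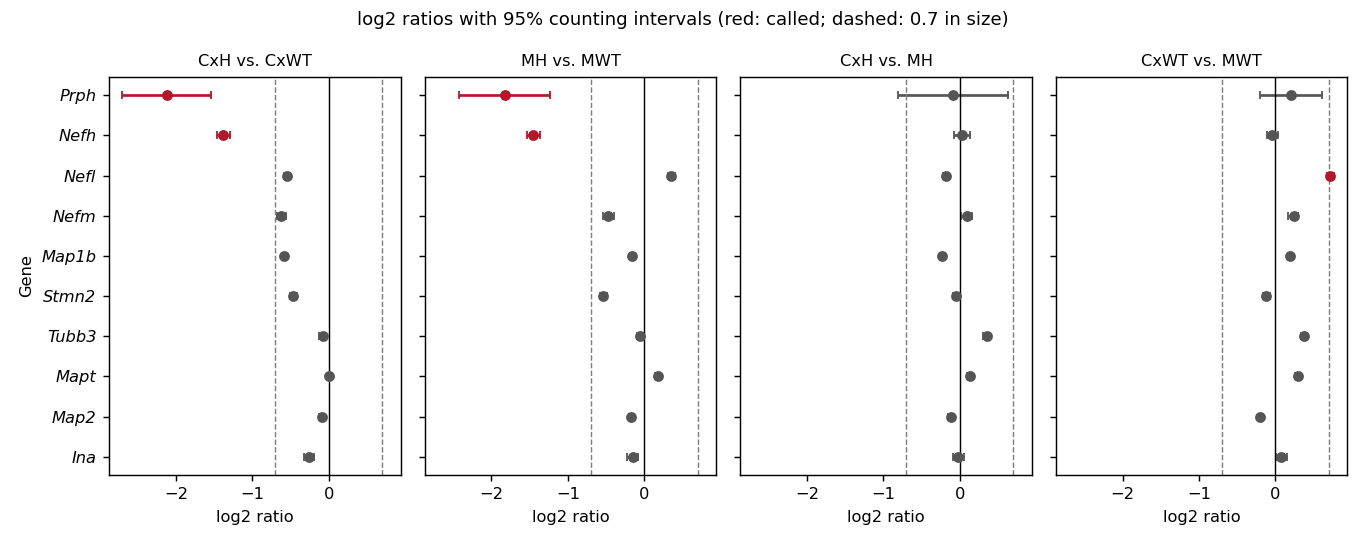
Log2 ratio of each member in the 4 comparisons of the study, with the 95% interval from counting; called genes are red and dashed lines mark the threshold of 0.7. Nefh and Prph lay below the lower line in both pairs of Ids-ko and wt labels and near 0 for CxH vs. MH and CxWT vs. MWT, where only Nefl passed the upper line.

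In CxH vs. CxWT, 2 of the 10 genes, Nefh and Prph, were called down-regulated and none up-regulated. Of all 12700 genes, 20.9% were called in this pair, 11.5% lower and 9.46% higher, so a share of 2 in 10 is close to that of the table. The median log2 ratio of the 10 genes was -0.51, and that of all genes was -0.09. Below the latter lay 7 of the 10 members. Of the 9 below 0, Map2 and Tubb3 were at 0.0 and 0.01 with TMM scaling. In MH vs. MWT the same 2 genes were called lower, where 25.0% of all genes were called, 12.7% lower and 12.3% higher. The members' median was here -0.16 against -0.07 for all genes, and -0.35 when corrected for GC content and length. Nefh and Prph lay at percentiles 2.87 and 1.11 of all log2 ratios in CxH vs. CxWT, and at 2.42 and 1.46 in MH vs. MWT.

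Within each genotype label, few members were called between the area labels. None of the 10 genes was called in CxH vs. MH, where 3.50% of all genes were called (2.43% higher and 1.06% lower), and the members' median was -0.03 against 0.01 for all genes. In CxWT vs. MWT only Nefl was called, where 7.54% of all genes were called (5.43% higher and 2.11% lower), with a median of 0.20 against 0.04, and 0.10 when corrected. In both remaining pairs Nefh and Prph were called lower, the latter in CxH vs. MWT without reaching the minimum of 100 reads, joined by Nefm in MH vs. CxWT. For CxH vs. MWT 30.7% of all genes were called (15.6% higher and 15.1% lower), and for MH vs. CxWT 15.3% (6.41% higher and 8.89% lower). Nefh had a log2 ratio of -1.42 ± 0.044 for CxH vs. MWT and -1.41 ± 0.044 for MH vs. CxWT, and Prph of -1.91 ± 0.31 and -2.03 ± 0.29. The 6 pairs share libraries and are not independent of each other. Ids had a log2 ratio of -0.20 in CxH vs. MWT (0.30 when corrected for GC content and length) and of -1.44 in CxH vs. MH. The relation of Nefh and Prph to Ids was not tested.

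**Figure D4:**
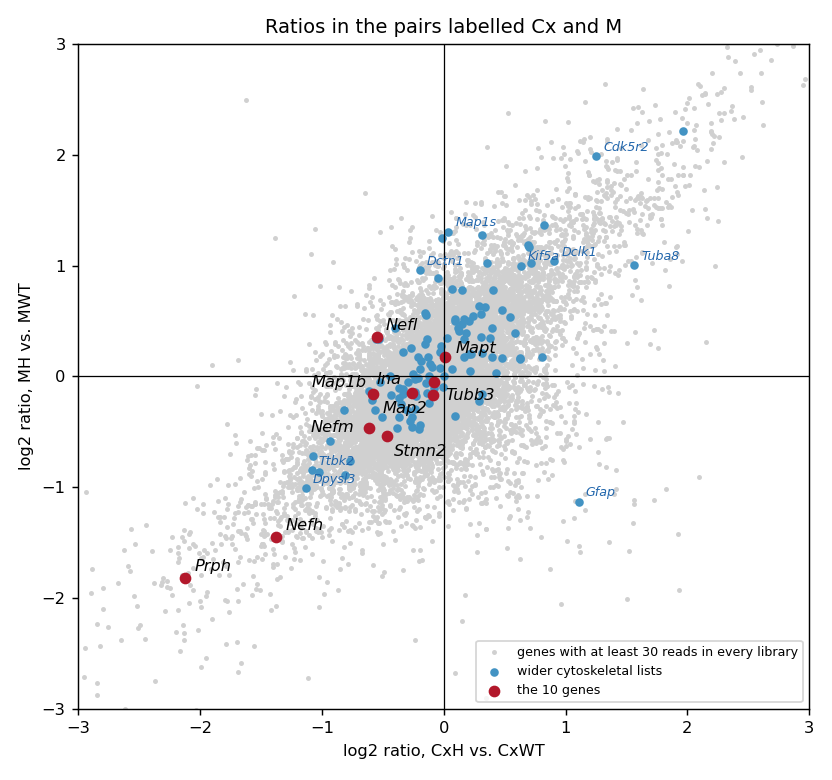
Log2 ratio in MH vs. MWT against that in CxH vs. CxWT for genes reaching 30 reads in every library (grey), genes of the related cytoskeletal lists (blue) and the 10 members (red); both axes are limited to 3 in size, beyond which further grey genes lie. Nefh and Prph are low on both axes, the other members lie within 0.7 of 0 on both, and Nefl has opposite signs.

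Log2 ratios varied with the GC content of the transcript, with Spearman rho across 10698 genes of 0.463 in CxH vs. CxWT and 0.488 in MH vs. MWT. It was 0.582 for CxH vs. MH, 0.629 for CxWT vs. MWT, 0.687 for CxH vs. MWT and 0.165 for MH vs. CxWT. Nefh and Prph are rich in GC, at 58.4% and 60.8%, compared with 45.8% for Stmn2 and 47.7% for Map1b. Corrected for GC content and length, Nefh was at -1.70 and -2.04 in CxH vs. CxWT and MH vs. MWT and Prph at -2.44 and -2.36, farther from 0 than before. Stmn2 moved toward 0, to -0.27 and -0.17. Ina (-0.49 and -0.48) and Tubb3 (-0.34 and -0.38) moved away from 0 without a call. With the correction Nefm reached the threshold in CxH vs. CxWT, at -0.78.

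Other cell types and areas moved in the same pairs of libraries. The 12 oligodendrocyte markers summed to 5095 RPM in CxH and 5314 RPM in MH, against 9679 RPM in CxWT and 7839 RPM in MWT. All 12 were higher in both CxWT and MWT than in CxH and MH, and 10 were called lower in CxH vs. CxWT and 7 in MH vs. MWT. Of all genes 11.5% and 12.7% were called lower in these pairs, and 9.46% and 12.3% higher. The 3 markers analysed of cholinergic and motor neurons, Chat, Isl1 and Slc5a7, summed to 9.43 and 9.55 RPM in CxH and MH and to 31.1 and 35.1 RPM in CxWT and MWT, and were all called lower in both pairs. Chat, which makes acetylcholine, was at -1.47 ± 0.15 and -1.60 ± 0.17. Of the 15 cortical markers 13 were called higher and of the 17 markers of midbrain, diencephalon and hindbrain 16 were called lower in each of both pairs, with median log2 ratios of -5.55 and -4.72 for the latter. No cortical marker was at or under 3 reads in any library, and of the latter list 7 genes were so in CxH, 4 in MH and none in CxWT and MWT. The part of these markers in the ratios of Nefh and Prph was not tested.

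**Figure D5:**
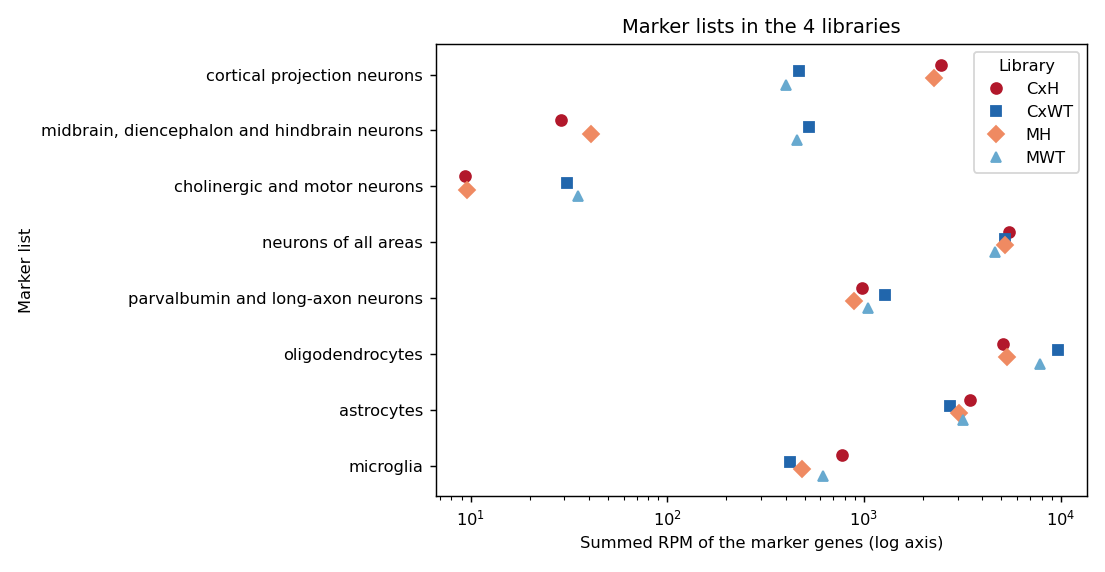
Summed RPM of each marker list in the 4 libraries, on a log axis; each point is 1 library. Cortical markers were higher in CxH and MH, and markers of midbrain, diencephalon and hindbrain, of cholinergic neurons and of oligodendrocytes were higher in CxWT and MWT.

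General neuronal markers had ratios nearer 0. The 10 markers of neurons of all areas summed to between 4626 RPM (MWT) and 5455 RPM (CxH), with a median log2 ratio of 0.08 in CxH vs. CxWT and 0.18 in MH vs. MWT and 1 call, Rbfox3, higher in each (1.43 and 1.61). The 8 markers of parvalbumin and long-axon neurons summed to 976 and 889.8 RPM in CxH and MH and to 1287 and 1052 RPM in CxWT and MWT, with medians of -0.34 and -0.17, 1 and 2 called higher and 2 and 3 called lower. Vamp1, a synaptic vesicle protein of that list, was called lower in both pairs, at -2.01 ± 0.024 and -1.59 ± 0.025. The 9 astrocyte markers summed to between 2749 RPM (CxWT) and 3450.1 RPM (CxH), with 1 called higher and 1 lower within Cx and 2 lower within M. Of 11 microglial markers 7 were called higher in CxH vs. CxWT and 3 lower in MH vs. MWT, in each pair the direction opposite to that of Ids. Beside these counts, 9.46% of all genes were called higher and 11.5% lower in CxH vs. CxWT, and 12.3% and 12.7% in MH vs. MWT.

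Likeness of pattern over the 4 libraries was measured, over the 11010 genes that reached 100 reads in each of them, by the root mean square distance of centred log2 RPM. For Prph the nearest genes were Cd83 (0.054), Zic1 (0.070), Smim17, Plekhd1 and Syt9, and for Nefh they were Sgpp2 (0.040), Cacng5 (0.040), Aldh1a7, Nipal2 and Rwdd2a. Prph itself did not reach 100 reads in CxH, MH and MWT. The standard errors of its log2 ratios, 0.21 to 0.37, exceeded these distances, so the order of its nearest genes is not resolved. Zic1, a transcription factor of the developing midline, had 595 and 552 reads in CxH and MH and 2073 and 1483 reads in CxWT and MWT. The nearest to Nefl were Bud13, Stmn3, Ndufs8, Cables1 and Arl6ip4. Stmn3, a relative of Stmn2, had 7173, 9207, 8243 and 5067 reads and thus followed Nefl more closely than Stmn2. Arhgef10 (0.010), Slc41a2, Ttll5, Ampd3 and Rgs8 were nearest to Nefm. With 4 libraries, likeness of pattern is a description only.

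Genes that work with the members were then examined as lists, without a set test. The counts of this and the following lists are to be read beside the shares of all genes called. In CxH vs. CxWT 20.9% of all genes were called, 9.46% higher and 11.5% lower. In MH vs. MWT 25.0% were called, 12.3% higher and 12.7% lower. Of 11 tubulins analysed, 2 were called higher in CxH vs. CxWT and 1 in MH vs. MWT, with none lower. Tuba8 was higher in both, at 1.56 ± 0.13 and 1.0 ± 0.14, and Tuba4a in the first (0.80, or 0.68 and not called with the GC and length correction). The median log2 ratios of the list were -0.01 and 0.22. Of 21 other microtubule-associated proteins, Map7d2 was called lower in CxH vs. CxWT (-0.94), and Map1s and Map7d1 were called higher in MH vs. MWT, at 1.31 ± 0.065 and 0.89. With the correction for GC content and length Map1s was at 0.37 and Map7d1 at 0.05, and both calls were lost. The medians were -0.14 and 0.17. Map1a, the relative of Map1b, was at 0.40 and 0.44 without a call, and at 0.18 and -0.14 with the correction.

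Growth-associated proteins were called in both directions. Of 14 analysed, 1 was called higher and 3 lower in CxH vs. CxWT, and 2 higher and 3 lower in MH vs. MWT, with medians of -0.22 and -0.04. Gap43, a protein of the growth cone, was lower at -0.77 ± 0.036 and -0.77 ± 0.038, and Dpysl3 and Dpysl5, which bind tubulin in growing axons, were also lower in both, Dpysl3 at -1.13 ± 0.13 and -1.01 ± 0.14. Dclk1, a doublecortin-like kinase, was higher at 0.91 and 1.04, and Dpysl4 was higher in MH vs. MWT only (0.79). The correction for GC content and length ended the calls of Dpysl4 (0.38) and of Gap43 within M (-0.50). TMM or DESeq2 scaling ended those of Gap43 within Cx (-0.68) and of Dpysl5 within M (-0.66).

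In the membrane skeleton, 2 of 15 spectrins, ankyrins and related proteins were called higher and 2 lower in CxH vs. CxWT, and 3 higher and 2 lower in MH vs. MWT, with medians of 0.07 in both. Add2, an adducin, was called higher in both pairs (0.71 and 1.02) and Sptbn4, a beta-spectrin, in the latter (1.03). Corrected for GC content and length, none of these 3 ratios was called, with Add2 at 0.48 and 0.68 and Sptbn4 turned to -0.12. Scaling by column totals also ended the call of Add2 within Cx. Ank1 and Epb41l3 were lower in both pairs, Ank1 at -1.03 ± 0.043 and -0.86 ± 0.049.

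Of 23 axonal motor genes, Kif5b was called lower in CxH vs. CxWT (-0.82), and 3 were called higher in MH vs. MWT. The medians were -0.11 and 0.17. Kif5a, a neuronal kinesin, was at 0.63 ± 0.0062 without a call in the first pair and was called at 1.0 ± 0.0074 in the second. Dctn1, the large dynactin subunit, was at -0.20 ± 0.018 and 0.96 ± 0.024, and the other motor called in M was Kif21b (0.78). None of the 4 calls among motors held when corrected for GC content and length, which gave -0.51 for Kif5b, 0.66 for Kif5a, 0.28 for Dctn1 and 0.13 for Kif21b.

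The kinases and phosphatases that act on tau and neurofilaments had 2 genes higher and 1 lower of 20 in CxH vs. CxWT, and 4 higher and 1 lower in MH vs. MWT, with medians of 0.18 and 0.12. Cdk5r2, an activator of the kinase Cdk5, was higher in both, at 1.25 ± 0.028 and 1.99 ± 0.043. Ttbk1 and Ttbk2, a pair of tau-tubulin kinases, went in opposite directions. Ttbk1 was higher at 0.82 and 1.37, and Ttbk2 lower at -1.09 ± 0.031 and -0.85 ± 0.030. Mark2 and Mark4, kinases that phosphorylate tau, were called higher within M, at 1.19 and 1.25. Calls of Ttbk1, Mark2 and Mark4 were lost with the GC and length correction, at 0.42 and 0.40 for Ttbk1 and 0.60 and 0.59 for Mark2 and Mark4. Ttbk2 (-0.80 and -0.81) and Cdk5r2 (0.81 and 1.02) kept theirs.

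Among 12 cytolinkers and other intermediate filaments analysed, 1 was called higher in CxH vs. CxWT, and 3 were higher and 1 lower in MH vs. MWT, with medians of 0.12 in both. Gfap, the filament protein of astrocytes, was higher at 1.11 ± 0.018 in the first pair and lower at -1.13 ± 0.019 in the second. Plec, which links filaments to other structures, was called in the second only, at 1.27 ± 0.039 against 0.32 ± 0.029, as was Lmna (1.17). Under the GC and length correction Plec and Lmna were at 0.20 and 0.59 in that pair, without a call. Dst and Macf1, giant linkers of filaments and microtubules, were at -0.61 and -0.59 in CxH vs. CxWT, without a call.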

How the data were processed

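RNA of pools of 7 mice was sequenced as 1 library for each of 4 conditions on a SOLiD 3 Plus instrument. The authors aligned reads with PASS 2.10 to NCBI37/mm9, allowing up to 2 mismatches and no gap, and deposited raw counts of reads aligned to a single gene, for genes of which reads covered more than 50% of the length. The gene annotation is not given in the sources used here.

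Counts were scaled by the aligned reads of each library, a count of 0 being set to 1 for ratios. All genes were tested in the 4 comparisons of the study and the other 2 pairs of libraries, with p-values from a likelihood ratio test on Poisson counts. Within a pair of libraries no test of edgeR that estimates variation could be run. Entrez identifiers named 12690 of 12700 rows, of which 12412 matched 1 gene of GENCODE vM1 and 12221 had a protein-coding transcript not annotated as putative, the longest of which gave GC content and length.

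Members and gene lists were chosen with earlier results of these data known. Named genes were the members and Ids, the 2 highest and 2 lowest ratios of each list and comparison among genes reaching 100 reads in 1 or both libraries, the 5 genes most like the members with the widest range, and markers at the ends of their range. Other markers and called genes were chosen after their values were seen. Genes of the lists absent from the table were not analysed here, and a few genes that entered the counts and medians are not reported here by name.

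Depth was 23475080, 20266394, 22057807 and 16380080 reads on genes in CxH, CxWT, MH and MWT. Exact intervals have a confidence level of 95%. The 11 alternatives covered library scaling, thresholds, an assumed variation between pools of 0.1 or 0.2, a minimum of 100 reads, 0.5 added to counts, and a spline correction for GC content and length. Steps were tested on simulated data. Python 3.11.15, scipy 1.17.1, R 4.3.3, edgeR 4.0.16 and DESeq2 1.42.0 were used.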

Additional observations from a re-analysis of the deposited data

Results flagged for a closer look

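Of the members, only Nefl had log2 ratios of opposite sign in the comparisons within Cx and within M, at -0.55 in CxH vs. CxWT and 0.35 in MH vs. MWT, among those whose ratio exceeded its counting error in both. Ids had -1.39 and 1.24, Dctn1 -0.20 and 0.96, and Gfap 1.11 and -1.13. Each condition was 1 library, so these differences between comparisons were not tested.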

How the results depend on the processing

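No log2 ratio of a member that passed the call changed sign under any of the 11 alternatives. Of the 10 ratios called over members and pairs of libraries, 4 lost the call under 1 or more of them (Nefl in CxWT vs. MWT, Nefm in MH vs. CxWT, and Prph in MH vs. MWT and CxH vs. MWT), and 1 other gained one (Nefm in CxH vs. CxWT, with the GC correction). Of the 10 members, 1 in place of 2 was called in MH vs. MWT and in CxH vs. MWT when at least 100 reads in either library were required, because Prph had fewer. In CxWT vs. MWT, 0 in place of 1 was called with column totals, TMM factors or DESeq2 size factors, with a log2 threshold of 1, and with an assumed variation of 0.2. Scaling moved the median of all genes by over 0.1 only in CxH vs. MWT with column totals (-0.107) and in MH vs. CxWT with TMM (0.107) or DESeq2 factors (0.109). With a log2 threshold of 1, the counts called within Cx and within M were 0 and 1 for other microtubule-associated proteins, 2 and 2 for growth-associated proteins, 2 and 3 for spectrins and related proteins and 0 and 0 for motors, and 1 tubulin remained called in the first pair. With an assumed variation of 0.2 they were 1 for tubulins and 2 for spectrins in CxH vs. CxWT and 2 for growth-associated proteins in MH vs. MWT. The correction for GC content and length gave 1 tubulin and 0 motors in CxH vs. CxWT, and in MH vs. MWT 0 other microtubule-associated proteins, 3 growth-associated proteins, 3 spectrins, 0 motors, 2 kinases and phosphatases and 2 cytolinkers. It also turned Sptbn4 in MH vs. MWT from 1.03 to -0.12. TMM and DESeq2 scaling each gave 2 motors, 5 kinases and phosphatases and 3 cytolinkers in CxH vs. CxWT. Why these values moved was not tested. Chosen after the data were seen, an additive edgeR quasi-likelihood fit over the 4 libraries used the area label as a replicate block for genotype and the genotype label as one for area, with 1 residual degree of freedom. Both areas came from the same mice, so the blocks are not independent replicates. Variation between mice is therefore not measured by the p-values of this fit. Of the 10 members it called 2 by genotype label, Nefh at -1.41 (Benjamini-Hochberg adjusted p = 0.0015) and Prph at -1.97 (0.00796), beside 2369 of 12700 genes with an adjusted p under 0.05, while Ids was at -0.07 (0.942). By area label it called 0 members, where 0 genes passed the adjusted p and 615 had an unadjusted p under 0.05. With 1 library a condition, no library was left out. Depth limits Prph most, with 30 and 31 reads in CxH and MH.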
